A study of Mus musculus with 6 samples.

Results

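The galectins considered here are Lgals1, Lgals3, Lgals8 and Lgals9, together with Lgals3bp, which encodes a galectin-3 binding protein. They were taken by symbol, and all 5 were found among the 15443 gene symbols of the table. The study measured RNA of bone marrow cells from C57BL/6J wild-type mice, an inbred laboratory strain, by a 3′ tag sequencing kit (QuantSeq FWD). Libraries of the midkine group came from cells given recombinant human midkine, a heparin-binding growth factor, at 10 ng/ml (replicates 3, 4 and 5). Control libraries had no midkine (replicates 1, 2 and 4). Both groups were grown for 3 days with FLT3LG, the cytokine that drives dendritic cell development, at 50 ng/ml. The cultures were unsorted, and the labels do not state the age of the mice or that replicates were separate animals or cultures. P-values thus cover only the variation among these 6 libraries, part or all of which could be technical.

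Galectins are lectins that bind galactose-containing sugars on glycoproteins. They are made in the cytosol and leave the cell without a signal peptide, so that they act both inside cells and on cell surfaces. Galectin-1 has a single sugar-binding domain and pairs with itself, galectin-3 carries such a domain behind a long flexible tail, and galectin-8 and galectin-9 join 2 domains by a linker. In myeloid cells galectin-3 is a typical macrophage product, galectin-1 is known for dampening T cells, galectin-8 marks damaged vesicles for autophagy, and galectin-9 binds the receptor TIM-3. The protein of Lgals3bp is a secreted scavenger receptor cysteine-rich glycoprotein that galectins bind, and is not itself a galectin.

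The sequences below show what the family shares. Each line gives 45 bases of coding sequence, 5′ to 3′, from the longest complete coding transcript of GENCODE M21. Capitals mark the 5 codons for histidine, any residue, asparagine, proline and arginine, a run that lines the sugar-binding groove.
Lgals1: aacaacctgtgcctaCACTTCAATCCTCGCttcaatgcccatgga
Lgals3: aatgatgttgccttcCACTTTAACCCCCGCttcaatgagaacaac
Lgals8 first domain: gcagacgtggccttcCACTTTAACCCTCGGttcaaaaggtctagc
Lgals8 second domain: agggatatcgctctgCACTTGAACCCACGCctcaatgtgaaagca
Lgals9 first domain: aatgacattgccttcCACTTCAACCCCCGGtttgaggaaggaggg
Lgals9 second domain: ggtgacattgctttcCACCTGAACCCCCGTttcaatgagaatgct

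The run began at codon 45 of 135 in Lgals1, counting the start codon as the first, and at codon 172 of 264 in Lgals3. It occurred 2 times in Lgals8, at codons 64 and 237 of 325, and 2 times in Lgals9, at codons 60 and 265 of 353. It occurred 0 times in the 577 codons of Lgals3bp. The stretch of Lgals3 was most like that of the second Lgals9 domain, with 33 of 45 bases identical, and shared 26 of 45 with Lgals1. The first and second domains of Lgals8 were the least alike of all pairs, with 23 of 45 bases identical.

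On GRCm38, Lgals1 lies on chromosome 15 from 78926725 to 78930465 (plus strand) and Lgals3 on chromosome 14 from 47367751 to 47386160 (plus strand). Lgals8 lies on chromosome 13 from 12439415 to 12464944, Lgals9 on chromosome 11 from 78962974 to 78984946 and Lgals3bp on chromosome 11 from 118392751 to 118402092, all on the minus strand. All are protein-coding genes. Only Lgals8 among them overlaps another annotated gene. Its last exon shares 155 bases with exons of Heatr1, a ribosome biogenesis gene on the opposite strand (chromosome 13, 12440135 to 12440289), and the strand setting of the counting is not given in the sources used here.

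Recovered reads per library ranged from 5985684 to 7233960. Midkine 5 stood apart from the other 5 libraries: across genes its log2 values correlated at 0.921 to 0.941 (Pearson) with theirs, while the best pair of the others reached 0.985. Only 0.377% of its reads were mitochondrial ribosomal RNA. That share was 4.12% in midkine 3, 4.69% in midkine 4 and between 4.91% and 6.16% in the control libraries. Calls are therefore given with and without midkine 5. Its part in the results below is shown by those values, and why it differs was not tested. Values are normalized counts as deposited, which for this kit come from 1 fragment near the 3′ end of each transcript and are not scaled to transcript length.

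Lgals3 had the highest level of the family and was higher in every midkine library than in every control, by about 1.90-fold between the group means. It had 8982, 10573 and 12953 normalized counts in midkine 3, 4 and 5, against 5700, 5966 and 5464 in control 1, 2 and 4. The groups did not overlap, and midkine 5 was the highest library. The means were 10836 ± 1998 in midkine and 5710 ± 251 in control libraries (SD, n = 3 each). The log2 fold change, midkine minus control on log2(normalized count + 1), was 0.91 ± 0.173 SE, with a 95% interval of 0.51 to 1.31 (limma, adjusted p = 0.0788 over 13543 genes). This missed the threshold of 0.05, as did every gene tested.

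Of the 5 members, which all passed the filter on low values, 0 passed the limma threshold with all 6 libraries, where 0% of all genes tested did. At an unadjusted p under 0.05, Lgals3 alone passed among the members, as did 2663 of 13543 genes (19.7%). EdgeR's quasi-likelihood test called 10 of 13543 genes (0.0738%). DESeq2 called 684 of the 11549 genes to which it gave an adjusted p (5.92%). For Lgals3 the adjusted p was 0.0806 with edgeR and 0.000629 with DESeq2, which called it higher together with 3.97% of those 11549 genes. Without midkine 5, Lgals3 rose past the limma threshold, with a log2 fold change of 0.77 ± 0.107 SE (95% interval 0.55 to 1.00, adjusted p = 0.000116).

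**Figure D1:**
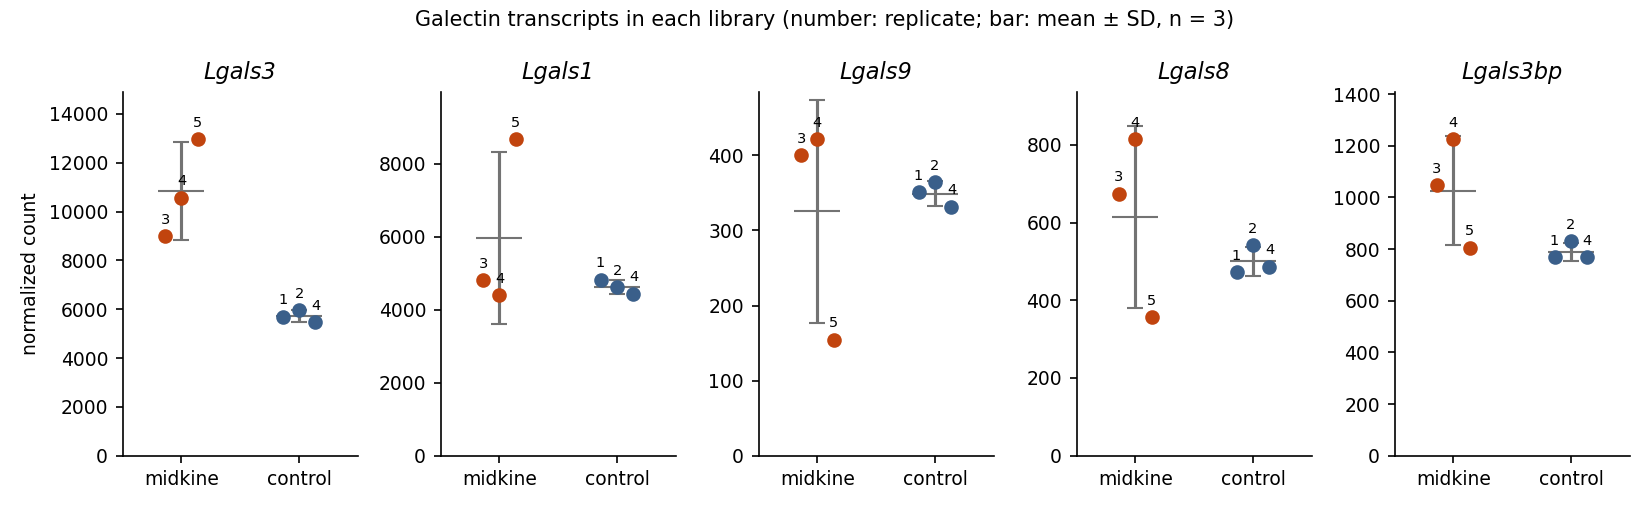
Normalized counts (y axis, from 0, with its own scale in each panel) of the 5 genes in each midkine and control library; numbers give the replicate, and bars the mean ± SD of 3 libraries. For Lgals3 the midkine libraries (8982 to 12953) lie above the controls (5464 to 5966), while midkine 5 lies above the controls for Lgals1 and below them for Lgals8 and Lgals9.

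Lgals1, the second most abundant member, was at control level in 2 midkine libraries and nearly doubled in the third. It had 4801 and 4397 normalized counts in midkine 3 and 4 and 8665 in midkine 5, against 4821, 4619 and 4436 in control 1, 2 and 4. Midkine 3 lay within the control range, midkine 4 just under it and midkine 5 far above it. The log2 fold change was 0.30 ± 0.252 SE (95% interval −0.28 to 0.87; limma, adjusted p = 0.523). Without midkine 5 it was −0.0089 ± 0.0992 SE, with an interval of −0.22 to 0.20 (limma, adjusted p = 0.964). In those 5 libraries, a change of Lgals1 as large as that of Lgals3 (0.77) lies outside this interval.

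Lgals8, whose product is recruited to sugars exposed on broken vesicles, was higher than all controls in midkine 3 and 4 and lower than all of them in midkine 5. It had 674, 814 and 357 normalized counts in midkine 3, 4 and 5, against 472, 542 and 486 in control 1, 2 and 4. The log2 fold change over all libraries was 0.22 ± 0.285 SE (95% interval −0.44 to 0.87; limma, adjusted p = 0.685). Without midkine 5 Lgals8 rose, by 0.57 ± 0.114 SE (interval 0.33 to 0.81; limma, adjusted p = 0.00206). Heatr1, whose exons it overlaps, had 448, 513 and 1100 in midkine 3, 4 and 5, against 430, 469 and 600 in control 1, 2 and 4. Heatr1 was thus highest in midkine 5, the library in which Lgals8 was lowest. Whether reads of one gene were counted for the other was not tested.

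Lgals9, the least abundant member, showed the same split. It had 400, 421 and 154 normalized counts in midkine 3, 4 and 5, against 351, 364 and 331 in control 1, 2 and 4. Midkine 3 and 4 lay above each control, and midkine 5 lay far below the lowest one. The depth was enough to separate that library: 170 reads, or 0.00235% of midkine 5 (Wilson 95% interval 0.00202 to 0.00273%), against 0.00524% to 0.00582% in the controls, whose lowest bound was 0.00471%. Such intervals cover counting error only. The log2 fold change was −0.23 ± 0.355 SE (95% interval −1.05 to 0.58; limma, adjusted p = 0.728), and 0.24 ± 0.112 SE without midkine 5 (interval 0.0014 to 0.47; limma, adjusted p = 0.157). Lgals9 did not pass the threshold either way.

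Lgals3bp had 1047, 1225 and 805 normalized counts in midkine 3, 4 and 5, against 769, 829 and 768 in control 1, 2 and 4. Midkine 3 and 4 lay above the controls and midkine 5 within their range. The log2 fold change was 0.36 ± 0.179 SE (95% interval −0.053 to 0.77; limma, adjusted p = 0.307). Without midkine 5 Lgals3bp rose by 0.52 ± 0.104 SE (interval 0.30 to 0.74; limma, adjusted p = 0.00199).

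Among the members, 4 of 5 were above every control in both midkine 3 and midkine 4, the exception being Lgals1. This pattern held for 23.8% of all genes tested. In midkine 5, Lgals1 and Lgals3 were above every control, as were 41.8% of all genes, and Lgals8 and Lgals9 were below every control, as were 41.1%. Lgals8 and Lgals9 thus shared a pattern, above the controls in midkine 3 and 4 and below them in midkine 5, that 5.29% of all genes had. Only Lgals3 of the 5 was higher in all 3 midkine libraries without overlap, as were 15.5% of all genes. Without midkine 5, limma called 3 of 5 members higher (Lgals3, Lgals8 and Lgals3bp) and 0 lower, where it called 9.92% of all genes higher and 8.52% lower. On the same 5 libraries edgeR called these 3 and no other member, where it called 10.5% of all genes higher. So did DESeq2, which called higher 9.3% of the 11251 genes to which it gave an adjusted p.

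**Figure D2:**
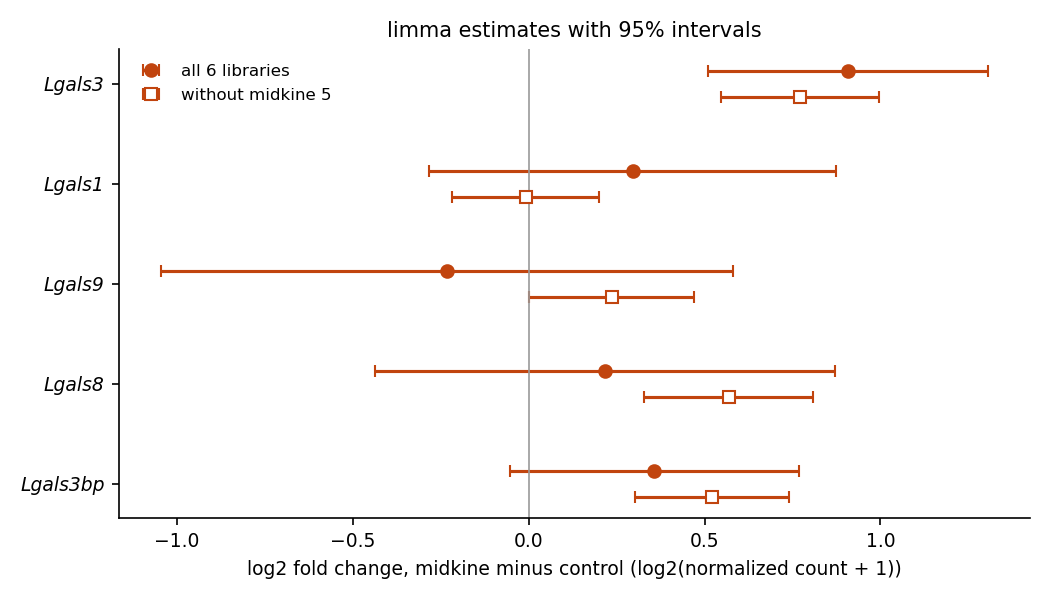
Log2 fold change, midkine minus control, of each gene (x axis, on log2(normalized count + 1)) with 95% limma intervals; filled circles use all 6 libraries and open squares leave out midkine 5. The Lgals3 interval lies above 0 in both fits (0.51 to 1.31 and 0.55 to 1.00), and those of Lgals8 and Lgals3bp do so without midkine 5.

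Controls were close to each other for every member, and the 3 midkine libraries were not. Midkine 5 was part of that spread: the limma SE of the log2 fold changes was 0.173 to 0.355 with it and 0.0992 to 0.114 without it. The coefficient of variation over 3 libraries was 18.4% for Lgals3, 39.6% for Lgals1, 38.1% for Lgals8, 45.6% for Lgals9 and 20.5% for Lgals3bp in the midkine group, against 4.16% to 7.42% over these genes in the control group. The order of levels was nevertheless the same in all 6 libraries: Lgals3, Lgals1, Lgals3bp, Lgals8 and Lgals9, from high to low. By the mean of its group, Lgals3 ranked 43rd of 15443 symbols in midkine and 100th in control libraries, and Lgals1 ranked 99th in midkine and 128th in control libraries. Lgals8 and Lgals9 were far less abundant: Lgals3 exceeded Lgals8 by 11.4-fold and Lgals9 by 16.4-fold in the controls.

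The 4 galectins together took 0.240%, 0.254% and 0.337% of the reads of midkine 3, 4 and 5, against 0.185%, 0.184% and 0.169% in control 1, 2 and 4. Every midkine library lay above every control. Lgals3 made up 60.5%, 65.2% and 58.5% of galectin reads in midkine 3, 4 and 5, against 50.2%, 51.9% and 51.0% in control 1, 2 and 4. The share of Lgals1 was 32.3%, 27.1% and 39.2% in the midkine libraries and 42.5%, 40.2% and 41.4% in the controls, and so was lower in each midkine library than in each control. That of Lgals9 was 2.69%, 2.60% and 0.697% in midkine and 3.09%, 3.17% and 3.09% in control libraries, also without overlap. That of Lgals8 overlapped, with 4.54%, 5.02% and 1.61% in midkine and 4.16%, 4.72% and 4.54% in control libraries. These shares are parts of the same sum, so a larger share of Lgals3 lowers the others. A lower share is not a lower level: by normalized count, Lgals9 lay above each control in midkine 3 and 4.

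A ratio of 2 genes within a library needs no scaling between libraries. Lgals3 exceeded Lgals1 by 1.87-, 2.40- and 1.49-fold in midkine 3, 4 and 5, against 1.18-, 1.29- and 1.23-fold in control 1, 2 and 4. On the log2 scale the difference averaged 0.92 ± 0.343 in midkine and 0.30 ± 0.0638 in control libraries (SD, n = 3 each), a gap of 0.61. The groups did not overlap, and the exact two-sided permutation p was 0.1, the smallest that 3 libraries against 3 can give. Leaving out 1 library at a time, the gap ranged from 0.44 without midkine 4 to 0.78 without midkine 5, so the balance of both genes differed in the same direction in midkine 5, the library in which Lgals1 itself was high.

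**Figure D3:**
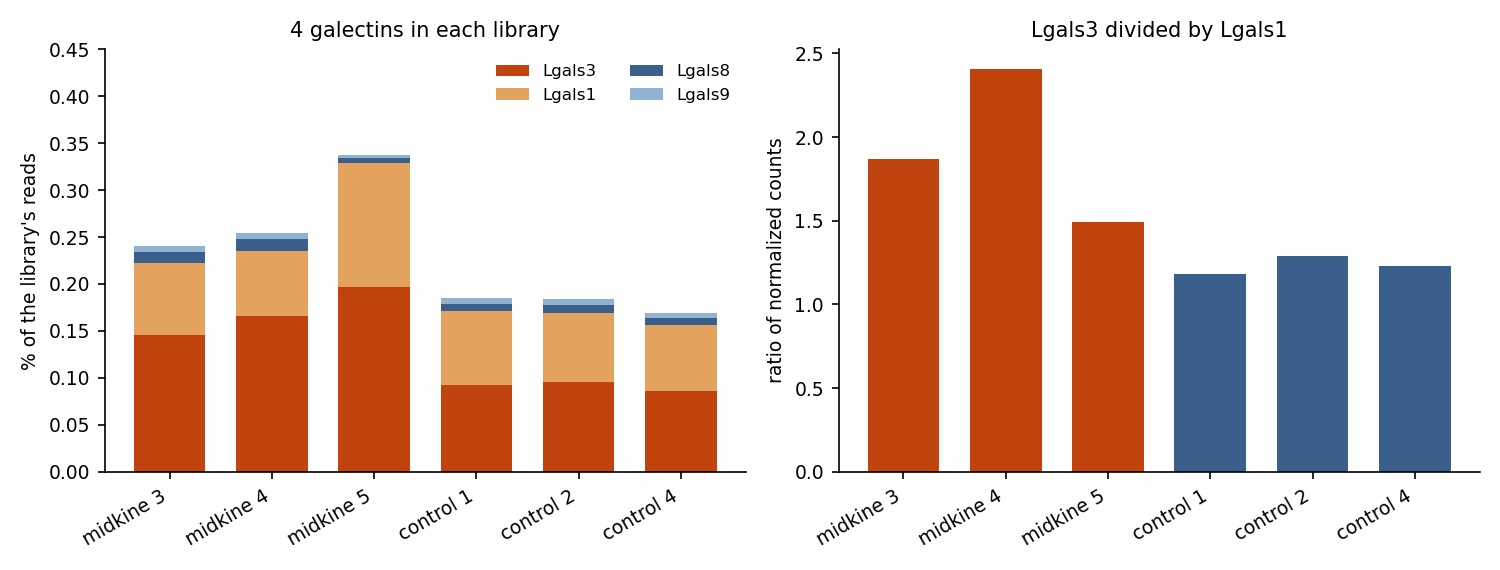
Left, share of each library's reads (y axis, %) taken by Lgals3, Lgals1, Lgals8 and Lgals9, stacked; right, normalized count of Lgals3 divided by that of Lgals1 in each library. The midkine bars (0.240 to 0.337%, ratio 1.49 to 2.40) are all above the control bars (0.169 to 0.185%, ratio 1.18 to 1.29).

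Markers of other cell types differed between the libraries along with Lgals3. The 10 genes of the monocyte and macrophage list, all measured, summed to 58087, 70053 and 96186 normalized counts in midkine 3, 4 and 5, against 42992, 43776 and 41809 in control 1, 2 and 4. Lgals3 was in the same order as that sum among the midkine libraries. It amounted to 15.5%, 15.1% and 13.5% of the sum in midkine 3, 4 and 5, against 13.3%, 13.6% and 13.1% in control 1, 2 and 4, so that midkine 5 lay within the control range. Much of the sum is Lyz2, the lysozyme gene that neutrophils also express. Without Lyz2 the sum was 20055, 21261 and 17468 in midkine 3, 4 and 5. In control 1, 2 and 4 it was then 13791, 14360 and 12629. By that sum midkine 5 was the lowest midkine library, while its Lgals3 level was the highest. Against the other 9 genes, Lgals3 amounted to 44.8%, 49.7% and 74.1% in midkine 3, 4 and 5, against 41.3%, 41.5% and 43.3% in control 1, 2 and 4, all midkine libraries then being higher.

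With all 6 libraries, limma called 0 genes of the 9 marker lists. Without midkine 5, 9 of 10 macrophage genes were called higher and 0 lower, and 5 of 8 neutrophil genes were called higher and 0 lower, where 9.92% of all genes were called higher and 8.52% lower. The neutrophil list summed to 173501 to 183305 normalized counts in midkine libraries and 121987 to 135709 in controls. Much of that sum is S100a8 and S100a9. Without midkine 5, S100a9 was called (limma, adjusted p = 0.00261) and S100a8 was not (limma, adjusted p = 0.171). The 9 conventional dendritic cell markers summed to 5106 to 9243 in midkine and 9059 to 10462 in control libraries, lowest in midkine 5, and 6 of 9 were called lower and 0 higher without that library. Much of this sum is Cd74 and H2-Ab1, which were not among those 6 (limma, adjusted p = 0.927 and 0.447). Basophil, mast cell and eosinophil markers, 6 of 7 measured, summed to 1728 to 2660 in midkine and 953 to 1184 in control libraries. B cell markers summed to 1012 to 1965 in midkine and 884 to 1248 in control libraries. Plasmacytoid dendritic cell markers summed to 3765 to 4088 in midkine and 4601 to 4917 in control libraries. Stromal markers summed to 322 to 497 in midkine and 596 to 1079 in control libraries. Without midkine 5, limma called 6 of 6 measured basophil, mast cell and eosinophil markers and 5 of 6 B cell markers higher, and 4 of 4 tested stromal and 1 of 5 plasmacytoid dendritic cell markers lower. It also called 1 of 3 measured erythroid markers higher and 0 T and NK cell markers, of which 1 was tested. Erythroid (93 to 143 in midkine, 37 to 67 in control) and T and NK cell markers (36 to 63 in midkine, 35 to 49 in control) were low, over 3 and 2 measured genes. Cd3e, Cd3g, Klf1 and Fcer1a were not analysed here. In unsorted cultures, fewer cells of a type and less RNA per cell cannot be told apart, and the part of these lists in the galectin values was not tested.

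Other galectins were scarce. Lgals4, an intestinal galectin, had 7.39 to 11.8 normalized counts in midkine and 5.92 to 12.3 in control libraries. Lgals7, a galectin of stratified epithelia, had 0 to 3.63 in midkine and 1.97 to 4.09 in control libraries, under the filter on low values. Lgalsl, a galectin-like gene, had 164, 119 and 110 in midkine 3, 4 and 5, against 115, 121 and 130 in control 1, 2 and 4 (log2 fold change 0.08; limma, adjusted p = 0.827), and its log2 fold change without midkine 5 was 0.20 (limma, adjusted p = 0.428). Both Lgalsl and Lgals4 overlapped between the groups. Lgals2, Lgals6, Lgals12 and Grifin were not analysed here.

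Known binding partners of galectins were a mixed group. With all 6 libraries 0 of 17 passed the limma threshold, and their median log2 fold change was 0.27, against −0.0040 over all genes tested. Without midkine 5 these medians were 0.20 and −0.0022, and 7 of 17 were called higher and 3 lower, against 9.92% and 8.52% of all genes. Mertk, a receptor for dying cells that binds galectin-3 and is also on the macrophage list, had 1722, 1574 and 1701 normalized counts in midkine 3, 4 and 5, against 712, 1057 and 762 in control 1, 2 and 4 (limma, adjusted p = 0.0788). Trem2, a lipid receptor of macrophages, had 1532, 1671 and 1337 in midkine libraries and 880, 1076 and 776 in controls. Slc3a2, the CD98 heavy chain, had 817, 1189 and 1206 in midkine and 582, 523 and 582 in control libraries. Fn1, which encodes fibronectin, had 595, 506 and 549 in midkine and 266, 362 and 341 in control libraries. These 4 did not overlap between the groups, and without midkine 5 each passed the threshold (limma, adjusted p from 0.000103 to 0.000659). They were named for their smallest p in these same libraries, so neither result is a further finding. Of the 17, 8 were higher in each midkine library than in each control and 2 lower, against 2100 and 2073 of 13543 genes. The 2 lower were Cd7 and Havcr2. Cd7, chosen after its values were seen, had 118, 110 and 208 in midkine and 276, 298 and 218 in control libraries (limma, adjusted p = 0.140). Without midkine 5 Cd7 passed the threshold (limma, adjusted p = 4.62e-05). Havcr2, which encodes the galectin-9 receptor TIM-3 and was chosen after its values were seen, had 85.1, 86.6 and 88.0 in midkine and 107, 144 and 116 in control libraries (limma, adjusted p = 0.209). Without midkine 5 its log2 fold change was −0.50, and it passed with limma (adjusted p = 0.0464) and edgeR (adjusted p = 0.0460) but not with DESeq2 (adjusted p = 0.139). It was lower in each midkine library, also where Lgals9 was above the controls.

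Enzymes that build or cap the galactose-bearing sugar chains were also measured, 21 of 21. With all 6 libraries 0 passed the limma threshold, and the list median was 0.23 on the log2 scale. Without midkine 5 the median was 0.22, and 4 were called higher and 0 lower, where 9.92% and 8.52% of all genes were. St6gal1, which caps galactose with a sialic acid that blocks binding by several galectins, had 138, 169 and 189 normalized counts in midkine 3, 4 and 5, against 73.8, 83.9 and 67.1 in control 1, 2 and 4 (log2 fold change 1.13; limma, adjusted p = 0.0788). Mgat5, which adds the branch that galectin-3 binds well, had 386, 463 and 455 in midkine and 259, 328 and 281 in control libraries. Both genes were higher in each midkine library than in each control. Among the 21, 6 were higher in this way and 1 lower, against 2100 and 2073 of 13543 genes. Mgat4b and Mgat4a make the same kind of branch and lay on opposite sides of the controls. Mgat4b had 423, 527 and 730 in midkine and 358, 306 and 354 in control libraries. Mgat4a had 178, 195 and 142 in midkine and 209, 221 and 247 in control libraries, lower in each midkine library. These 4 genes were named for their smallest p in these same libraries. Without midkine 5, St6gal1 (adjusted p = 0.000462), Mgat5 (0.00641) and Mgat4b (0.0120) passed the limma threshold, while Mgat4a did not (0.167).

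Genes that act with galectins at damaged vesicles, in autophagy and in mTOR control numbered 19, of which 0 passed the limma threshold. Their log2 fold changes had a median of 0.31, and of 0.23 without midkine 5. In 10 of 19 the midkine libraries were all above the controls, against 15.5% of all genes, and without midkine 5 limma called 7 higher and 0 lower, where 9.92% and 8.52% of all genes were. Lamtor1, a lysosomal anchor of mTOR signalling, had 1965, 2569 and 2719 normalized counts in midkine 3, 4 and 5, against 1436, 1364 and 1564 in control 1, 2 and 4 (limma, adjusted p = 0.0938). Rragc, a GTPase of the same complex, had 834, 938 and 629 in midkine and 568, 565 and 505 in control libraries. Map1lc3b, which coats autophagosomes, had 1008, 1092 and 1018 in midkine and 759, 793 and 801 in control libraries. Ulk1, a kinase that starts autophagy, had 198, 213 and 326 in midkine and 165, 163 and 111 in control libraries. All 4 were higher in each midkine library, midkine 5 included, where Lgals8 was low. They were named for their smallest p in these same libraries, so their separation is not a further finding. Without midkine 5 each of the 4 passed the threshold (limma, adjusted p from 0.000264 to 0.0388). With DESeq2 on those 5 libraries Ulk1 did not pass (adjusted p = 0.0844).

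**Figure D4:**
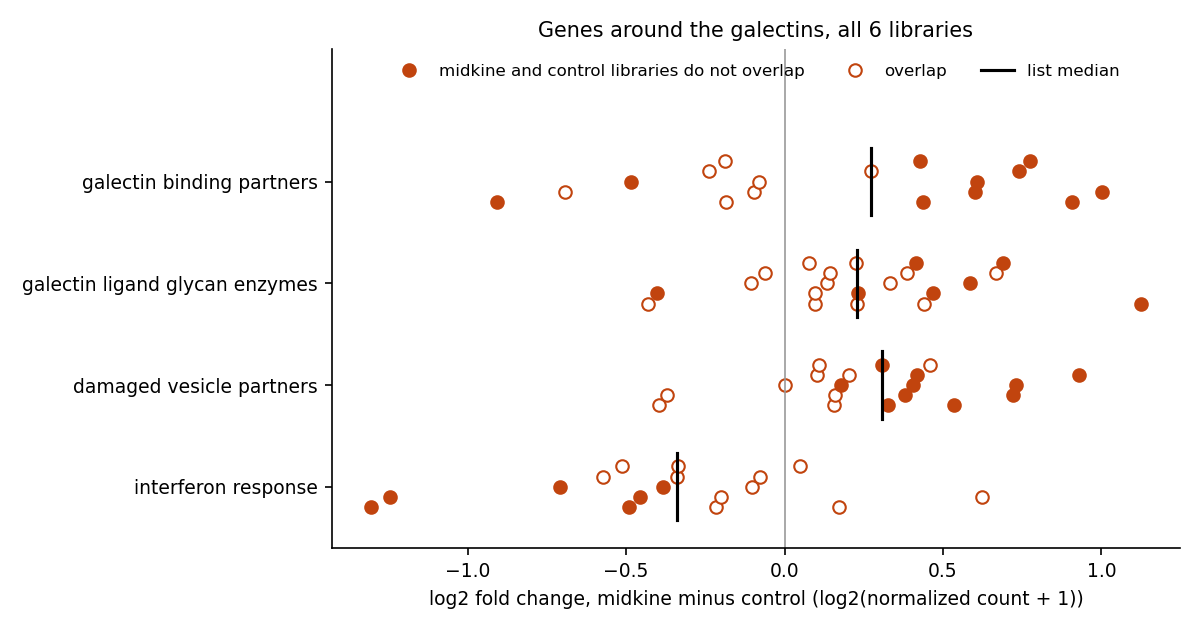
Log2 fold change, midkine minus control (x axis, on log2(normalized count + 1)), of each tested gene of 4 lists; filled points are genes whose midkine and control libraries do not overlap, and vertical bars are list medians. With all 6 libraries the medians are 0.27 for binding partners, 0.23 for glycan enzymes, 0.31 for vesicle partners and −0.34 for the interferon response.

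Lgals9 and Lgals3bp are both described as interferon-induced, so their start regions were compared with those of the family. RefSeq (GRCm38.p6) gave a window of 250 bases before to 50 after the start for 4 of 5 members, Lgals1 not among them. These starts need not be the outermost of the gene models given above: that of Lgals3 lies 6109 bases and that of Lgals8 3206 bases downstream of the GENCODE gene start, with 4 of 6 and 1 of 10 GENCODE transcripts starting within 100 bases of it. For Lgals3bp and Lgals9 the distances were 133 and 22 bases, with 1 of 5 and 3 of 4 transcripts starting within 100 bases. The GENCODE start nearest to that of Lgals3bp was 87 bases away. The interferon-stimulated response element was searched as a pair of GAAA blocks with any 2 or 3 bases between them, on both strands, and 6.09% of 27025 promoters of the same length held it. Lgals9 held 2 matches, at −55 and at 16 from the start, and Lgals3bp held 1, at −17. Lgals3 and Lgals8 held 0. The matches are shown in capitals on the strand of the gene, with 26 bases each; in Lgals9 they read as the reverse complement.
Lgals9, chr11:78984962-78984987, minus strand: acatcagcTTTCTTTTTCtctagaca
Lgals9, chr11:78984892-78984917, minus strand: agctgtggTTTCTGTTTCctagctca
Lgals3bp, chr11:118401959-118401984, minus strand: tgttttctGAAAATCGAAActaggtg

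A match is a description of letters, not of a factor at work. Of 17 interferon response genes, 14 had a negative log2 fold change and 3 a positive one, with a median of −0.34, and 0 passed the limma threshold with all 6 libraries. Without midkine 5 the median was −0.21, and limma called 3 lower and 0 higher, where 8.52% and 9.92% of all genes were. By library, the median difference from the control mean was −0.45 in midkine 3, −0.08 in midkine 4 and −0.56 in midkine 5. Mx2, an antiviral GTPase, had 28.0, 24.3 and 35.4 normalized counts in midkine 3, 4 and 5, against 84.1, 61.4 and 66.1 in control 1, 2 and 4 (limma, adjusted p = 0.0788). Stat2, a transcription factor of the pathway, had 155, 169 and 188 in midkine and 289, 290 and 256 in control libraries. Ifit2, an antiviral RNA-binding protein, had 175, 263 and 60.8 in midkine and 378, 328 and 346 in control libraries. Ifit1 had 60.9, 83.4 and 66.3 in midkine and 121, 79.8 and 103 in control libraries, with overlap. Mx2, Stat2 and Ifit2, named for their p among the 17, are the 3 called without midkine 5 (limma, adjusted p = 0.000349, 0.000442 and 0.00305), and Ifit1 was not called (0.106). The log2 fold change of Ifit2 was −1.31 with all libraries and −0.71 without midkine 5.

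The start region of Lgals3, the member higher in all midkine libraries, differed in its letters. It held the GC box, searched as GGGCGG on both strands, 2 times, at −7 and at 5 from the start. The GC box occurred in 35.9% of all promoters and in 0 of the other 3 member windows. GC content was 67.0% in Lgals3, 58.0% in Lgals9, 55.0% in Lgals3bp and 51.7% in Lgals8, against a median of 52.7% over all promoters. On both strands, 0 of the 4 windows held TGANTCA (the AP-1 site, in 7.93% of all promoters), TTCNNNGAA (the STAT site, in 8.47%) or TATAAA (the letters of the core promoter box, in 14.2%). GAGGAA on either strand, the core bound by the myeloid factor PU.1, occurred 2 times in Lgals9 and 1 time in Lgals3bp, and in 28.3% of all promoters. The 250 bases before the RefSeq start of Lgals3 are shown with the upstream GC box in capitals, where it reads as the reverse complement.
Lgals3, chr14:47373610-47373859, plus strand: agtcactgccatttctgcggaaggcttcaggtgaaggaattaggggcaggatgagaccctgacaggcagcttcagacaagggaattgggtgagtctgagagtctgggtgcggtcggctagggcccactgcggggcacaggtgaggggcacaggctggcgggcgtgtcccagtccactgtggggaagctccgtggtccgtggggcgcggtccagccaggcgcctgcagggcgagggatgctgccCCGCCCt

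For each member the 3 genes with the most similar profile were taken, by the root mean square difference of centred log2 values over the 6 libraries among 10123 genes with a mean of at least 20. Nearest to Lgals3 were Atp2b1, a plasma membrane calcium pump (0.0501), Il10rb, a chain of the IL-10 receptor (0.0503), and Polm, a DNA polymerase (0.0573). Il10rb had 623, 763 and 968 normalized counts in midkine 3, 4 and 5, against 417, 402 and 382 in control 1, 2 and 4. Nearest to Lgals1 were Uqcr10, a subunit of respiratory complex III (0.0345), Map2k2, a kinase of the MAP kinase cascade (0.0418), and Ube3b, a ubiquitin ligase (0.0444). All 3 were highest in midkine 5, as Uqcr10 shows with 743, 735 and 1413 in midkine and 767, 734 and 721 in control libraries.

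Nearest to Lgals8 were Zfp36l1, an RNA-binding protein that promotes mRNA decay (0.0511), Lmbrd2 (0.0585) and Samd8 (0.0699). Nearest to Lgals9 were Nek7, a kinase needed by the NLRP3 inflammasome (0.0457), Alcam, an adhesion molecule (0.0467), and Ifi209, an interferon-inducible gene (0.0549). Nek7 had 455, 502 and 180 normalized counts in midkine and 399, 433 and 413 in control libraries, so midkine 5 was lowest. Nearest to Lgals3bp were Necap1, an endocytosis factor (0.0392), Creg1, a secreted lysosomal glycoprotein (0.0556), and Ago4, an Argonaute protein (0.0586). The median difference over all candidate genes was 0.383 to 0.550 across the 5 members. These likenesses rest on 6 libraries, and for Lgals1, Lgals3 and Lgals9 midkine 5 was the library farthest from the control mean.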

How the data were processed

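The authors deposited a normalized count for each gene symbol and library, treated here as a signal. Tools in the submitters' processing notes are DESeq2, HTSeq, TopHat2 2.0.10 and Bowtie 1.0.0, with SAMtools 0.1.19 and FastQC 0.11.0. The genome build there is mm10 (GRCm38). Not given in the sources used here are the annotation, the strand setting and any gene filter. Values in a library were multiples of a single step, which gave back whole reads for 100% of values (tolerance 0.01 reads). The table held 0 other columns of samples.

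The test was limma 3.58.1 (trend, R 4.3.3) on log2(normalized count + 1), midkine minus control, two-sided, over 13543 genes with a mean of at least 5, adjusted by Benjamini-Hochberg and called below 0.05. The pseudocount understates changes of low genes. EdgeR 4.0.16 and DESeq2 1.42.0 used the recovered reads. DESeq2 was run on all 15443 symbols without that filter, and with all 6 libraries gave 3894 of them no adjusted p. The limma and edgeR steps were tried on simulated counts with a single dispersion for all genes and no library set apart like midkine 5. DESeq2 was not part of that trial, which does not measure how reliable the calls are in these data. Members, 5 context lists and 9 marker lists were chosen with earlier results of these data known. The rule named all members, up to 4 genes of each context list with the smallest p, and the 3 nearest profiles. Wilson 95% intervals cover counting error only. Gene models came from GENCODE M21. Figures used matplotlib 3.10.9.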

Additional observations from a re-analysis of the deposited data

How the results depend on the processing

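No paired analysis was possible because the groups share only 1 replicate number (4). Over 19 other settings Lgals3 kept a positive log2 fold change (0.77 to 1.04). Leaving out 1 library at a time with limma, it ranged from 0.77 (without midkine 5) to 1.04 (adjusted p from 0.000116 to 0.373), Lgals3bp from 0.22 (without midkine 4) to 0.52, Lgals8 from −0.026 (without midkine 4) to 0.57, Lgals1 from −0.0089 (without midkine 5) to 0.48 and Lgals9 from −0.49 to 0.24 (without midkine 5). The same fits called 0 to 3 members and 0 to 2497 genes, the highest counts without midkine 5. With array weights, Lgals3 had 0.87, Lgals8 0.67 and Lgals3bp 0.60, all 3 called higher, while Lgals9 had 0.24 and Lgals1 −0.049. That setting called 5076 of 13543 genes, 2589 of them higher and 2487 lower. Chosen after seeing the data were edgeR and DESeq2 without midkine 5. These gave 0.78 for Lgals3, 0.58 for Lgals8, 0.53 for Lgals3bp and 0.24 for Lgals9 with each tool, and −0.00052 (edgeR) and −0.0018 (DESeq2) for Lgals1. They called 3 members each and 2508 and 1737 genes. With all 6 libraries DESeq2 called 1 member, Lgals3 (0.92), and 684 genes. The number of genes called, 0 in the reported fit, was 10 with a pseudocount of 5, 9 with no filter on low values, 7 with TMM scaling, 16 with quantile normalization, 12 with scaling by total reads only and 10 with edgeR, and 0 members were called in these 6. The cause of these differences was not tested. Over 6 libraries left out in turn, the gap between Lgals3 and Lgals1 ranged from 0.44 to 0.78. The least abundant member, Lgals9, had 170 reads in its lowest library.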
